A study of Mus musculus with 9 samples.

Results

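Lymphatic endothelial cells (LECs) of the diaphragm were compared with LECs of the skin, gene by gene, in 6 of the 9 RNA-seq libraries of the study: Diaphragm replicates 1 to 3 and Skin replicates 1 to 3. The other 3 libraries came from the meninges and shared the low-count filter, the scaling and the estimate of spread, so they also bear on which genes were tested (12621 with the 6 libraries alone). Every gene of the count table that passed a filter on low counts was a member, which left 14831 of 23018 genes; 20718 genes had at least 1 count in the 6 libraries. Both groups came from untreated wild-type male C57BL/6 mice (strain C57BL/6J) aged 10 weeks, and in both the cells were sorted by flow cytometry as negative for CD45, a leukocyte antigen, and positive for CD31 (encoded by Pecam1) and podoplanin (Pdpn). The labels name no reporter gene and no other sort marker. Whether each library came from its own animal or from a pool is not said in the labels, and the p-values therefore cover only library-to-library spread, which may be technical.

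LECs line the vessels that return fluid, proteins and immune cells from tissues to the blood. Blind-ended capillaries take up fluid through flap-like junctions, and collecting vessels with valves and a muscle coat pass it on. Skin holds a superficial network of such capillaries, while the lymphatics of the diaphragm lie on a striated muscle covered by mesothelium and drain the peritoneal cavity. LEC identity is set by the homeodomain factor PROX1, and growth depends on VEGF-C acting through VEGFR-3 (Flt4).

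Total counts ran from 26075366 to 29950394 in the diaphragm libraries and from 26619515 to 28094215 in the skin libraries. Between 14396 and 15353 genes had a count in a diaphragm library, and between 13241 and 15550 in a skin library. The mitochondrial ribosomal RNAs took 19.0 to 29.0% of counts in diaphragm and 27.0 to 30.8% in skin. Levels are given as normalised CPM, the counts divided by the library's effective size after TMM scaling, on the usual CPM scale. Spearman correlations across genes were 0.720 to 0.767 within a tissue and 0.646 to 0.746 between the tissues, ranges that overlap.

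Prox1, Flt4, Pdpn, Pecam1 and Lyve1 had counts in each library of both tissues, and none of them was called. Prox1 measured 1666, 1742 and 2022 CPM in Diaphragm libraries 1 to 3 and 2042, 1799 and 1948 CPM in Skin replicates 1 to 3, and the groups overlapped (log2 fold change -0.09 ± 0.26 SE, edgeR adjusted p = 0.951). Pecam1 was at 704, 955 and 655 CPM in diaphragm and 816, 637 and 949 CPM in skin. Pdpn was at 84.3, 159 and 237 CPM in diaphragm and 117, 172 and 191 CPM in skin, so both sort markers overlapped. Lyve1, a hyaluronan receptor of initial lymphatics, was at 2767, 3513 and 4865 CPM in diaphragm and 5125, 4820 and 4926 CPM in skin. Its highest diaphragm library lay within the skin range. Flt4 did not overlap, at 2148, 2248 and 3021 CPM in diaphragm and 3646, 3585 and 3093 CPM in skin, but the difference did not pass the test (log2 fold change -0.48 ± 0.29 SE, edgeR adjusted p = 0.559). Ptprc, which encodes CD45, was at 0.0369, 118 and 6.23 CPM in diaphragm and 0, 2.03 and 0.0914 CPM in skin, so Diaphragm replicate 2 stood apart from the other 5 libraries in this transcript.

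Few genes separated the 2 tissues at the threshold used. With edgeR's quasi-likelihood test at a Benjamini-Hochberg adjusted p under 0.05, 6 genes were called (0.0405% of those tested), 5 higher in diaphragm (0.0337%) and 1 lower (0.00674%). The 5 were Chodl, Sytl2, Oasl2, Jam2 and Ifi203, and the 1 lower was Emb. At an unadjusted p under 0.05, 1012 genes were higher (6.82%) and 737 lower (4.97%). Each of the 3 diaphragm libraries lay above all 3 skin libraries for 1118 genes (7.54%) and below them for 882 (5.95%). These shares are the background for the counts of members given further on, other than counts of members with no count in a tissue. Of the genes tested, 179 had counts in every diaphragm library and none in skin, and 51 the reverse. A gene counted in a single tissue could pass the low-count filter only through that tissue, so its direction was fixed beforehand. The standard error of a log2 fold change had a median of 1.52 over all genes, and the biological coefficient of variation was 1.24. The median log2 fold change was 0.01.

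The counts of calls moved with the libraries and with the tool. Without Diaphragm replicate 1, 2 genes were higher and 0 lower (603 lower at an unadjusted p under 0.05), without Diaphragm replicate 3, 9 and 0 (666 lower unadjusted), without Meninges replicate 1, 26 and 4. Leaving out Skin replicate 1 gave 10 and 3, Skin replicate 2 gave 54 and 4, and Skin replicate 3 gave 8 and 2. DESeq2 called 516 higher (3.48%) and 299 lower (2.02%), while limma voom with quality weights called 0 higher (729 at an unadjusted p under 0.05) and 1 lower.

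**Figure D1:**
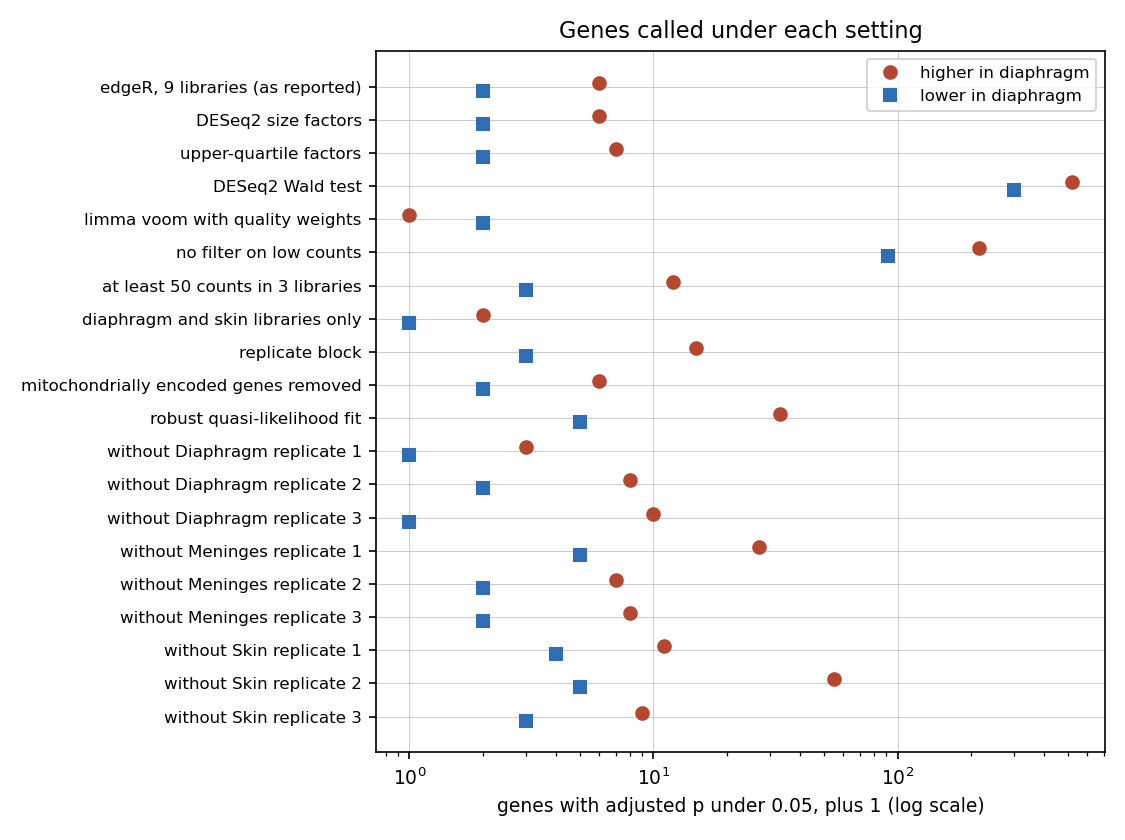
Number of genes called higher or lower in diaphragm than in skin (adjusted p under 0.05; horizontal axis, number plus 1, log scale) under each processing setting, 1 line per setting. The edgeR result of 5 higher and 1 lower stands between 0 and 1 with limma voom and 516 and 299 with DESeq2.

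Chodl, which encodes chondrolectin, a membrane protein of the C-type lectin family, was the gene with the smallest adjusted p. Its level was 306, 370 and 108 CPM in the diaphragm libraries (261 ± 137, SD, n = 3) and had no count in any skin library. Taking a floor of 3 counts for the skin group as a whole, diaphragm was at least 12.62 higher in log2 units (edgeR adjusted p = 0.000763). The 3 meningeal libraries together held 1 count. The call held without any 1 of the 9 libraries, and was lost with limma voom (adjusted p = 0.0626).

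Sytl2 encodes a synaptotagmin-like protein that binds RAB27 and acts in vesicle transport. It was at 83.2, 84.7 and 28.2 CPM in diaphragm and had no count in skin, so that diaphragm was at least 10.62 higher in log2 units by that floor (edgeR adjusted p = 0.0252). The third diaphragm library was the lowest of the 3, as it was for Chodl. The call was lost without Diaphragm replicate 1 or Diaphragm replicate 2, with adjusted p at most 0.0793.

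Jam2 encodes junctional adhesion molecule B, an endothelial adhesion protein that leukocyte integrins can bind. It was at 225, 71.5 and 56.6 CPM in diaphragm and 0.503, 0.162 and 0 CPM in skin, and the groups did not overlap. The log2 fold change was 9.0 (SE 1.29, edgeR adjusted p = 0.0252), and the call was lost without Diaphragm replicate 1 (adjusted p = 0.0793). Jam2 was the 1 called member of the 23 junction genes tested, of which 1 lay above and 4 below skin in all libraries, with a median log2 fold change of -0.07. Cdh5, the cadherin of endothelial junctions, overlapped at 988, 906 and 706 CPM in diaphragm and 714, 853 and 964 CPM in skin. Cldn5, a tight junction protein, was at 136, 109 and 165 CPM in diaphragm and 217, 194 and 252 CPM in skin (edgeR adjusted p = 0.515).

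Oasl2 and Ifi203 are both known as interferon-induced genes. Oasl2 was at 10.2, 25.9 and 68.1 CPM in diaphragm and had no count in skin, at least 9.71 higher in log2 units by that floor (edgeR adjusted p = 0.0201). Its call held without any 1 library. Ifi203, a member of the nucleic acid-sensing PYHIN family, was at 35.5, 22.8 and 58.6 CPM in diaphragm and 0.194, 0.284 and 0.137 CPM in skin (log2 fold change 7.54 ± 1.09 SE, edgeR adjusted p = 0.0252). Near-identical genes of its family can share reads, so its count is uncertain. The Ifi203 call was lost without Diaphragm replicate 1, Skin replicate 1 or Skin replicate 3 (adjusted p at most 0.0717).

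Emb was the 1 gene called lower in diaphragm. It encodes embigin, a partner protein that brings monocarboxylate transporters to the cell surface. Skin libraries held 2.09, 73.1 and 27.2 CPM, and the diaphragm libraries held 1 count in all. The log2 ratio of diaphragm to skin was -11.44 (95% Poisson counting interval -16.74 to -8.96; edgeR adjusted p = 0.0252). The skin values themselves spread widely, with Skin replicate 1 the lowest. The call was lost without any 1 of the 3 diaphragm libraries (adjusted p at most 0.0793). With limma voom none of the 6 genes was called, and with the 6 libraries alone Chodl was the 1 gene called.

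**Figure D2:**
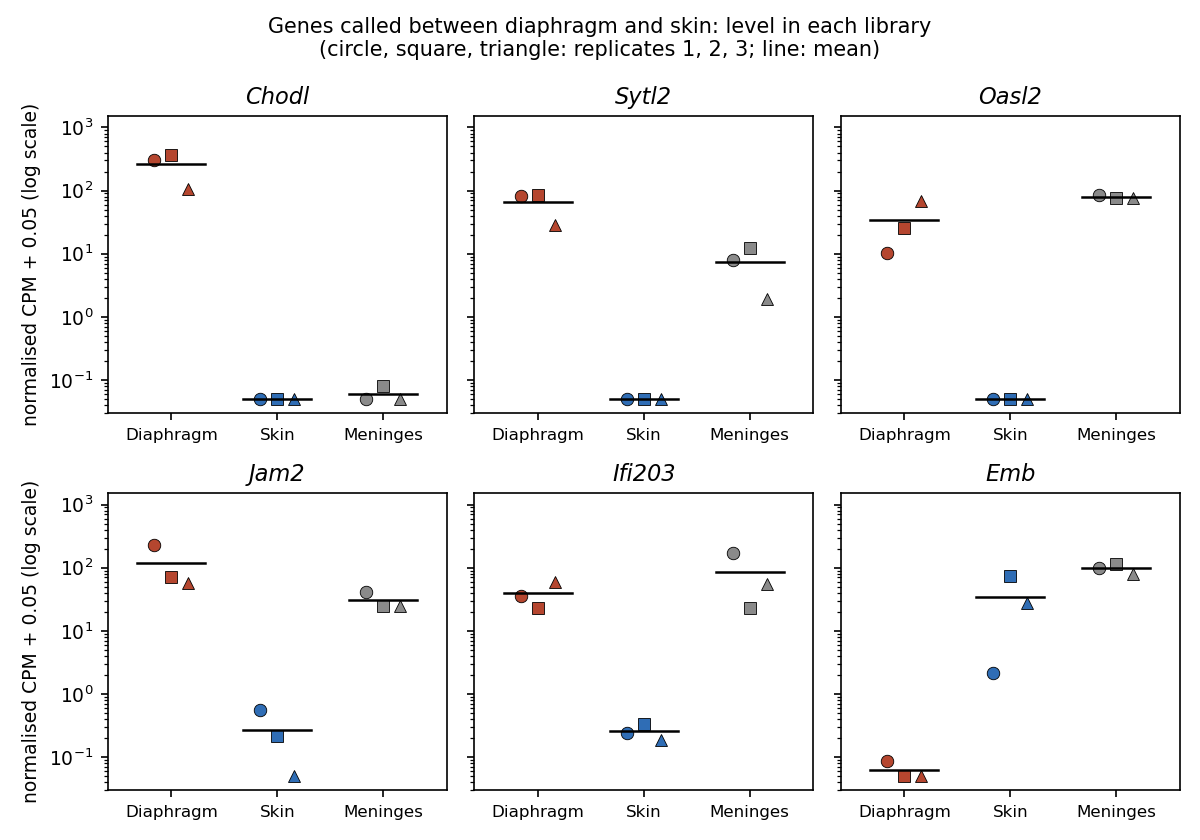
Normalised CPM (log axis) of the 6 called genes, 1 point per library, with the 3 diaphragm and 3 skin libraries among those drawn. A small offset was added so that libraries with no count can be drawn. Chodl, Sytl2 and Oasl2 had no count in any skin library, and Emb had 1 count in the 3 diaphragm libraries together.

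Genes just past the threshold form the next group, and none of them is called. Aqp1, the water channel aquaporin-1, was at 595, 369 and 386 CPM in diaphragm and 30.5, 103 and 71.2 CPM in skin (log2 fold change 2.73 ± 0.46 SE, edgeR adjusted p = 0.0521). The lowest diaphragm library was well above the highest skin library. Cyp4b1, a cytochrome P450, was at 141, 285 and 126 CPM in diaphragm and 12.9, 12.1 and 19.8 CPM in skin (adjusted p = 0.0521 with edgeR). Edn3, the peptide endothelin-3, was at 67.2, 41.1 and 18.3 CPM in diaphragm with no count in skin (edgeR adjusted p = 0.0521). Ptpru, a receptor tyrosine phosphatase, was at 15.3, 20.7 and 64.6 CPM, and Tmem176a at 6.52, 15.0 and 15.7 CPM, both with no count in skin. Vstm4, an immunoglobulin-domain membrane protein, was at 10.1, 22.0 and 12.3 CPM, also with no count in skin. Without Skin replicate 2 or without Meninges replicate 1, Aqp1 and Edn3 passed the test.

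On the skin side, Cacna1e, a voltage-gated calcium channel subunit, was at 32.3, 53.1 and 46.6 CPM in diaphragm and 344, 181 and 369 CPM in skin (log2 fold change -2.76 ± 0.46 SE, edgeR adjusted p = 0.0521). Timp2, an inhibitor of metalloproteinases, was at 1053, 1153 and 1157 CPM in diaphragm and 2585, 2267 and 2772 CPM in skin. Its replicates lay close together in both tissues, with a log2 fold change of -1.18 (SE 0.23, edgeR adjusted p = 0.0706), and it was the 1 gene called by limma voom (adjusted p = 0.013). Cadm1, a cell adhesion molecule, was at 0, 0.0757 and 0.143 CPM in diaphragm and 47.3, 6.82 and 54.1 CPM in skin (edgeR adjusted p = 0.0613). Abi3bp, an extracellular matrix protein, was at 360, 630 and 737 CPM in diaphragm and 1740, 1209 and 2704 CPM in skin. Pkd1, the polycystin-1 gene, was at 288, 232 and 183 CPM in diaphragm and 447, 846 and 754 CPM in skin. None of these skin-side groups overlapped. Pan2, Pip5k1c, Ahnak2 and Crispld1 followed, also without overlap, at adjusted p from 0.117 to 0.159.

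**Figure D3:**
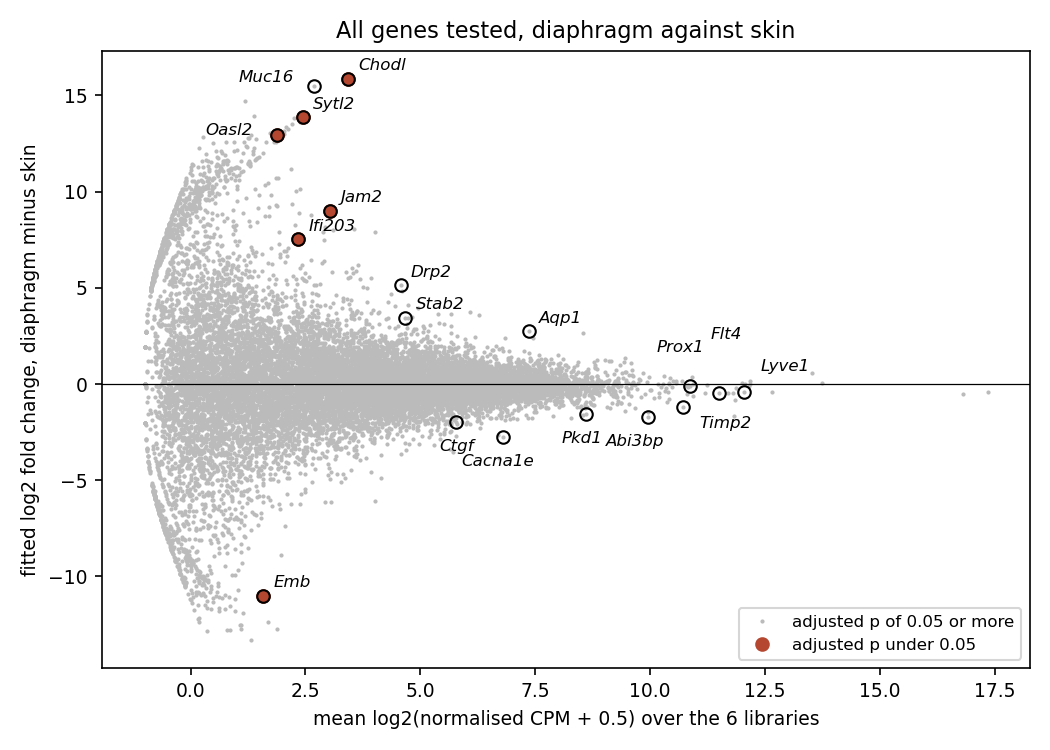
Fitted log2 fold change (diaphragm minus skin, vertical axis) against the mean log2 of normalised CPM plus 0.5 over the 6 libraries (horizontal axis), 1 point per gene tested, with the 6 called genes filled. The spread narrows as the level rises; the fitted values of genes with no count in 1 tissue depend on the fit's prior count and are not fold changes to be quoted.

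Markers of muscle stem cells stood higher in each diaphragm library than in any skin library. The list of 15 genes summed to 1045, 871 and 542 CPM in diaphragm and 37.2, 55.2 and 108 CPM in skin, and Chodl is 1 of its members. Of the 14 tested, 1 was called higher (Chodl), 12 lay above skin in all libraries and 0 below. The median log2 fold change was 9.36 as fitted, or 7.62 with the genes that had no skin count set at their bounds, and 8 members had no count in skin. No share over all genes is given for the 8. Members that also had no meningeal count, such as Myf5, could pass the low-count filter only through the diaphragm libraries. For them, lying above skin was fixed beforehand. Pax7, the factor that defines muscle stem cells, was at 288, 164 and 91.9 CPM in diaphragm and 0, 1.99 and 0 CPM in skin (edgeR adjusted p = 0.143). Myf5, a myogenic factor, was at 27.1, 34.8 and 18.7 CPM in diaphragm with no count in skin. Fgfr4, a receptor of that lineage, was at 55.2, 51.8 and 31.3 CPM in diaphragm and 0.271, 0 and 0 CPM in skin. Des, the muscle intermediate filament, was at 57.9, 64.0 and 40.9 CPM in diaphragm with no count in skin. The sort used CD31 and podoplanin, and the part of muscle stem cells in the Chodl result was not tested. In these bulk libraries fewer cells of a type and less RNA per cell cannot be told apart.

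Several mesothelial markers were highest in Diaphragm replicate 1. Muc16, a mucin of the mesothelial surface, was at 543, 26.3 and 37.3 CPM in diaphragm with no count in skin (edgeR adjusted p = 0.0521). Upk3b was at 356, 0.568 and 2.40 CPM and Wt1, a mesothelial transcription factor, at 197, 9.85 and 0.681 CPM in diaphragm, with no count in skin. The list summed to 1665, 360 and 361 CPM in diaphragm and 510, 187 and 268 CPM in skin, a sum to which Gpm6a alone gave 374, 306 and 252 CPM in diaphragm and all of the skin value. Of the 14 members with a row of counts, 12 had no count in skin and 10 were tested. No share over all genes is given for the 12. Muc16, Upk3b and Wt1 had no meningeal count either, so only the diaphragm libraries could carry them through the low-count filter. None was called in edgeR, with 8 higher at an unadjusted p under 0.05, 5 called by DESeq2 and 0 by voom. Mesothelial cells carry podoplanin, and the sort also used CD31. The part of mesothelial cells in the Muc16 value was not tested.

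Markers of other cell types were summed in the same way. Skeletal muscle fibre markers summed to 481, 1222 and 641 CPM in diaphragm and 249, 338 and 324 CPM in skin, and 8 of 15 tested lay above skin in all libraries and 0 below. Ttn, the giant sarcomere protein, was at 161, 572 and 187 CPM against 80.4, 55.8 and 269 CPM. Fibroblast markers summed to 1935, 1907 and 1046 CPM in diaphragm and 218, 1495 and 970 CPM in skin, so Skin replicate 1 was the lowest, and 4 of 20 tested lay above skin in all libraries. Mural markers summed to 581, 460 and 357 CPM in diaphragm and 131, 54.3 and 329 CPM in skin. Of 13 tested, 4 lay above skin in all libraries and 0 below. The fitted value was higher in diaphragm for 5 and lower for 6, with a median log2 fold change of 0. Rgs5, a pericyte gene of the mural list, was at 250, 101 and 162 CPM in diaphragm and 0, 11.2 and 0 CPM in skin (edgeR adjusted p = 0.256). Mcam, of the same list, overlapped at 23.9, 48.2 and 14.6 CPM in diaphragm and 70.05, 15.0 and 31.8 CPM in skin. Macrophage markers, of which 7 were tested, summed to 400, 375 and 337 CPM in diaphragm and 116, 138 and 189 CPM in skin. Mrc1, a mannose receptor that LECs also express, made up most of that sum, at 324, 368 and 314 CPM against 116, 105 and 187 CPM.

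Lymphocyte, mast cell and granulocyte markers summed to 0.0369, 126 and 96.4 CPM in diaphragm and 0.0387, 4.47 and 0.137 CPM in skin. Adipocyte markers summed to 190 to 214 CPM in diaphragm and 82.2 to 134 CPM in skin. Of 4 tested, the fitted value was higher in diaphragm for 2 and lower for 2. Fabp4, which capillary endothelium also expresses, was at 170, 74.1 and 111 CPM in diaphragm and 2.13, 18.0 and 1.10 CPM in skin. Pparg overlapped at 12.2, 46.6 and 36.2 CPM in diaphragm and 30.1, 63.6 and 37.4 CPM in skin. Plin4 overlapped at 2.54, 17.8 and 54.9 CPM against 49.1, 44.7 and 57.7 CPM. Keratinocyte markers were highest in Skin replicate 2 (414 CPM, against 0.0774 and 10.05 CPM in the other skin libraries and 2.84 to 10.8 CPM in diaphragm). Of 5 tested none was called in edgeR and 0 stood apart without overlap. At an unadjusted p under 0.05, 4 were lower in diaphragm and 0 higher, with 3 called lower by DESeq2 and 0 by voom. Krt15 had no count in diaphragm and was at 0, 9.82 and 9.05 CPM in skin. Krt14, the keratin of basal epidermis, was at 107 CPM in Skin replicate 2 and at 0 in the other skin libraries. Melanocyte and hair follicle markers summed to 9.88 to 44 CPM in diaphragm and 14.8 to 39.9 CPM in skin, and lymph node stromal markers to 188 to 255 CPM and 145 to 449 CPM.

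Drp2, a dystrophin-related protein known from myelinating Schwann cells, was at 163, 140 and 148 CPM in diaphragm and 2.36, 1.42 and 9.09 CPM in skin (log2 fold change 5.13 ± 0.90 SE, edgeR adjusted p = 0.0569). Its diaphragm replicates lay close together. Of the 13 Schwann and nerve markers with a row of counts, 5 had no count in diaphragm, S100b among them, and Sox10 was at 0, 0 and 1.47 CPM. Others were present there, with Pmp22, which many cell types express, at 85.4, 304 and 173 CPM and L1cam at 9.95, 12.5 and 60 CPM. The whole list of 14 Schwann and nerve genes summed to 364 to 538 CPM in diaphragm and 434 to 903 CPM in skin. Most of the skin sum came from Pmp22, at 830, 344 and 724 CPM. Of 11 tested none was called in edgeR, and the median log2 fold change was -0.79. At an unadjusted p under 0.05, 1 was higher and 4 lower (6.82% and 4.97% of all genes tested). DESeq2 called 1 higher and 2 lower, and voom called 0. The part of Schwann cells in the Drp2 value was not tested.

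**Figure D4:**
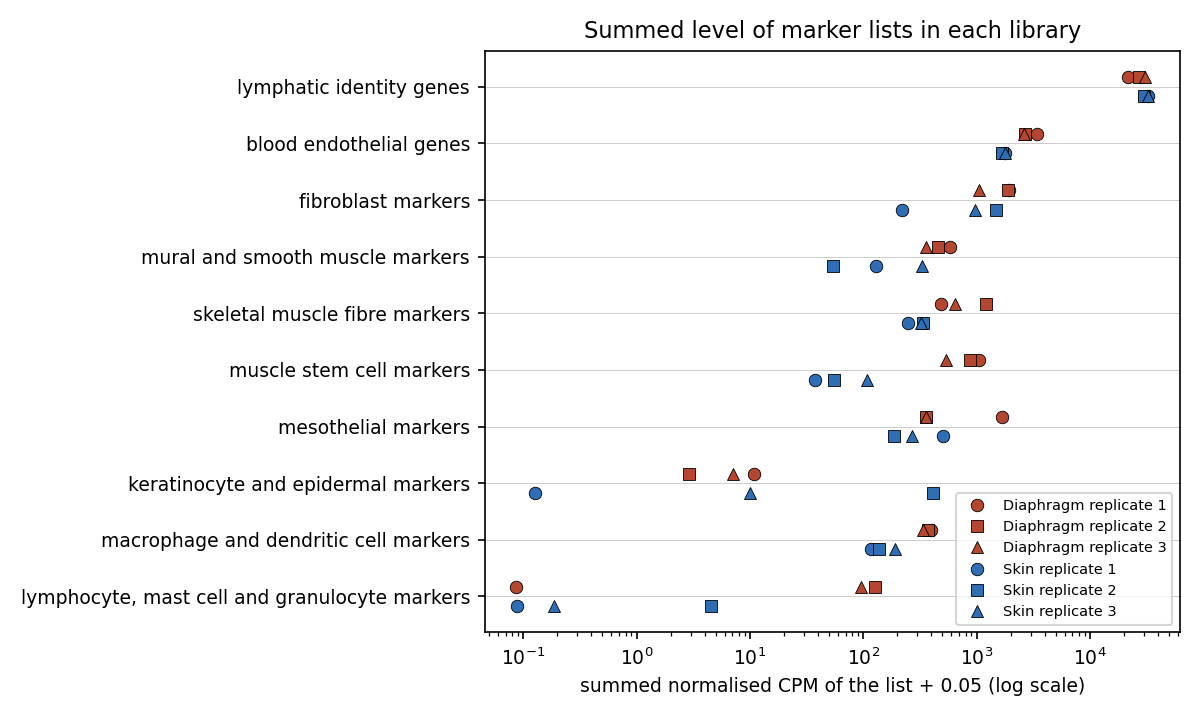
Summed normalised CPM plus 0.05 (log axis) of endothelial gene lists and of markers of other cell types in the 3 diaphragm and 3 skin libraries, 1 point per library. Muscle stem cell markers lie at 542 to 1045 CPM in diaphragm and 37.2 to 108 CPM in skin without overlap, while keratinocyte markers reach 414 CPM in Skin replicate 2 only.

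None of the 29 tested genes of lymphatic identity was called in edgeR. At an unadjusted p under 0.05, 2 were higher and 5 lower; DESeq2 called 2 higher and 1 lower, and voom 0. All diaphragm libraries lay below all skin libraries for 10 of the 29 and above them for 2, and the median log2 fold change was -0.22. Nr2f2, a nuclear receptor that acts with PROX1, was at 264, 278 and 357 CPM in diaphragm and 657, 524 and 703 CPM in skin (log2 fold change -1.07 ± 0.32 SE, edgeR adjusted p = 0.285). Maf, a transcription factor of LEC development, was at 280, 190 and 333 CPM in diaphragm and 530, 514 and 770 CPM in skin (edgeR adjusted p = 0.234). Nfatc1, a factor of valve and vessel patterning, was at 139, 287 and 324 CPM in diaphragm and 468, 388 and 627 CPM in skin (edgeR adjusted p = 0.389). Each of these 3 groups was without overlap. Emcn, a sialomucin, was at 206, 168 and 167 CPM against 374, 318 and 319 CPM. The extracellular proteins Reln and Mmrn1 overlapped, Reln at 2833, 3899 and 3784 CPM in diaphragm against 4336, 3889 and 4057 CPM in skin, and Mmrn1 at 3608, 5398 and 5147 CPM against 4371, 4780 and 4821 CPM.

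Genes of lymphatic capillaries (16 tested) and of collecting vessels and valves (27 tested) held no called gene in edgeR. For capillary genes 5 were higher and 1 lower at an unadjusted p under 0.05, with 4 called higher by DESeq2 and 0 by voom, and the median log2 fold change was 0.09. For collecting vessel and valve genes the unadjusted counts were 1 higher and 1 lower, with 1 called higher by DESeq2 and 0 by voom, and the median was -0.42. Foxc2, a valve regulator, was at 48.0, 5.83 and 76.0 CPM in diaphragm and 71.5, 51.8 and 97.0 CPM in skin, with overlap. Gata2, another valve factor, was at 21.2, 22.5 and 33.1 CPM in diaphragm and 34.4, 70.2 and 120 CPM in skin (edgeR adjusted p = 0.479).

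Scavenger and hyaluronan receptors had 6 of 19 tested members above skin in all libraries and 0 below, with a median log2 fold change of 1.25. None was called in edgeR; 6 were higher at an unadjusted p under 0.05, 6 were called by DESeq2 and 0 by voom. Stab2, a hyaluronan-clearing receptor of sinusoidal and lymphatic endothelium, was at 218, 44.5 and 37.4 CPM in diaphragm and 12.2, 4.55 and 10.97 CPM in skin (log2 fold change 3.44 ± 0.66 SE, edgeR adjusted p = 0.0706). Stab1, its relative, was at 687, 930 and 808 CPM in diaphragm and 378, 290 and 350 CPM in skin (log2 fold change 1.25 ± 0.32 SE, edgeR adjusted p = 0.191). Both groups stood apart without overlap.

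Genes better known from blood endothelium had 11 of 25 tested members above skin in all libraries and 0 below, with a median log2 fold change of 2.73, or 2.66 with bounds. None was called in edgeR; 11 were higher at an unadjusted p under 0.05, 8 were called by DESeq2 and 0 by voom. Aqp1 is among them. Cd36, a fatty acid receptor, was at 205, 152 and 174 CPM in diaphragm and 10.7, 48.1 and 5.53 CPM in skin (edgeR adjusted p = 0.177). Fabp4, a fatty acid binding protein, was at 170, 74.1 and 111 CPM in diaphragm and 2.13, 18.0 and 1.10 CPM in skin (edgeR adjusted p = 0.256). Flt1, the VEGF receptor VEGFR-1, was at 556, 113 and 93.4 CPM in diaphragm and 57.6, 28.0 and 0.0914 CPM in skin. Nrp1, a VEGF and semaphorin co-receptor, was at 267, 39.0 and 72.6 CPM in diaphragm and 0, 2.96 and 2.24 CPM in skin (edgeR adjusted p = 0.0936). Diaphragm replicate 1 was the highest library for all 5 of these genes. Kdr, the receptor VEGFR-2, which LECs also carry, overlapped at 646, 906 and 725 CPM in diaphragm against 763, 535 and 563 CPM in skin. The part of blood endothelial cells in these values was not tested. In the sort, podoplanin is the marker meant to separate LECs from them.

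**Figure D5:**
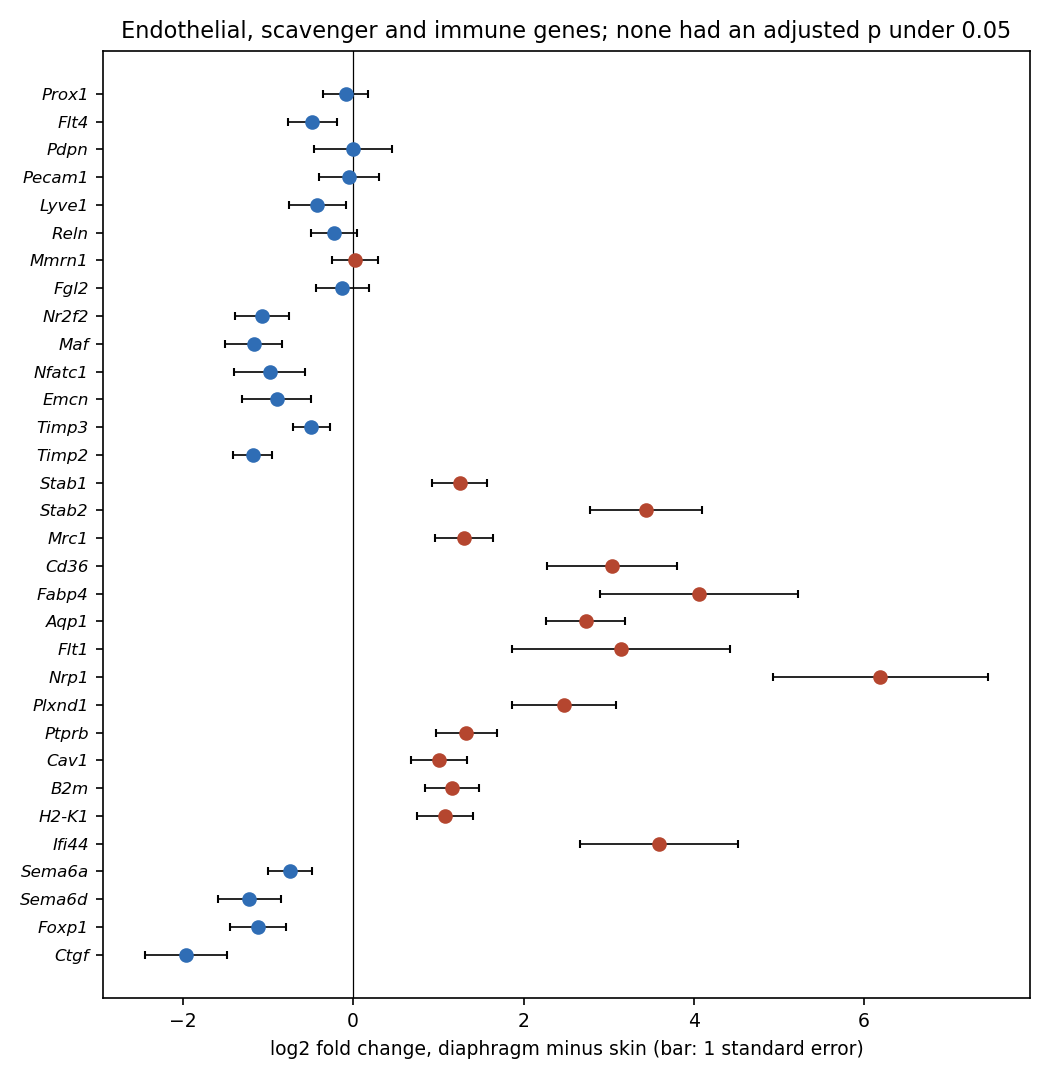
Log2 fold change (diaphragm minus skin, horizontal axis) of endothelial, scavenger and immune genes as fitted by edgeR, with bars of 1 standard error, red above 0 and blue below. Prox1, Pecam1 and Mmrn1 lie at 0 within their error, Nr2f2 at -1.07 and Stab2 at 3.44, and none of the genes drawn is called.

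The interferon genes are shown with the promoters of 3 genes that respond to interferon, because 2 of the called genes are of that kind. Each line is the 150 bases before a RefSeq start site on the gene's own strand in build GRCm38.p6, a different build from that of the counts (mm9). Capitals mark the letters GAAANNGAAA, the core of the interferon-stimulated response element, searched on both strands.
Oasl2, chr5:114896784-114896933, plus strand: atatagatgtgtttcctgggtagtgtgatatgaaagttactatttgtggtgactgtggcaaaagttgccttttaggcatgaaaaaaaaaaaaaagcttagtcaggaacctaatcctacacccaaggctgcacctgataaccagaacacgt
Ifi203, chr1:173942493-173942642, minus strand: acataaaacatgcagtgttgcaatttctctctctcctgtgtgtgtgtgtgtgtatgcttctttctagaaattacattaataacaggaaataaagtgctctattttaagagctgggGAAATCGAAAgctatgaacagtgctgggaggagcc
B2m, chr2:122147537-122147686, plus strand: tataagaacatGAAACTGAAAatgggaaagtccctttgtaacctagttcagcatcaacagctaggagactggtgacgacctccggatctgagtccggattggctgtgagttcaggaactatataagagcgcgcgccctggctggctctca
The letters occur at -35 to -26 from the second of 2 Ifi203 start sites in the table, whose window is the one printed, and at -139 to -130 from the B2m start. They do not occur in the window of the other Ifi203 start site, nor in the Oasl2 window of 300 bases (250 before to 50 after the start). Of 32851 such windows in the table, 1131 (3.44%) hold them. A match of letters is a description and does not show that a factor binds.

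Of 27 interferon response genes tested, 1 was called (Oasl2, higher), 4 lay above skin in all libraries and 0 below, and the median log2 fold change was 1.27. At an unadjusted p under 0.05, 8 were higher and 0 lower (6.82% and 4.97% of all genes tested). DESeq2 called 7 higher (3.48% of all genes) and 0 lower, and voom called 0. Ifi44 was at 11.5, 92.5 and 40.6 CPM in diaphragm and 4.53, 6.09 and 1.32 CPM in skin (edgeR adjusted p = 0.194). Rtp4 was at 30.2, 2.04 and 13.3 CPM in diaphragm and had 1 count in skin, a log2 ratio of 10.10 (95% Poisson counting interval 7.62 to 15.40; edgeR adjusted p = 0.165). Stat2, a factor that carries the interferon signal, overlapped at 92.4, 53.4 and 50.6 CPM in diaphragm and 47.6, 106 and 20.4 CPM in skin.

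Antigen presentation genes had 5 of 22 tested members above skin in all libraries and 0 below, with a median log2 fold change of 0.71. None was called in edgeR, with 4 higher at an unadjusted p under 0.05, 2 called by DESeq2 and 0 by voom. B2m, the light chain of class I molecules, was at 786, 635 and 578 CPM in diaphragm and 241, 360 and 296 CPM in skin (log2 fold change 1.16 ± 0.32 SE, edgeR adjusted p = 0.234). H2-K1, a class I heavy chain, was at 306, 216 and 313 CPM in diaphragm and 127, 133 and 136 CPM in skin (edgeR adjusted p = 0.287). Reads of class I genes can be shared among near-identical copies. Psmb9, an immunoproteasome subunit, was at 89.3, 4.77 and 28.5 CPM in diaphragm and 0.0774, 0.934 and 0 CPM in skin.

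Leukocyte adhesion genes (15 tested) held 1 call, Jam2, with 4 members above skin in all libraries and 0 below. Vcam1, an adhesion receptor for leukocytes that the muscle stem cell and blood endothelial lists also hold, was at 44.3, 44.1 and 161 CPM in diaphragm and 15.7, 3.53 and 0.0914 CPM in skin (edgeR adjusted p = 0.328). Chemokine and cytokine genes (15 tested) held no edgeR call, with 3 higher at an unadjusted p under 0.05, 2 called by DESeq2 and 0 by voom. Cxcl12, the ligand of CXCR4, was at 418, 101 and 76.3 CPM in diaphragm and 2.44, 48.7 and 18.6 CPM in skin (edgeR adjusted p = 0.277). Adrenomedullin and chemokine scavenger genes (8 tested) held no edgeR call and 0 genes at an unadjusted p under 0.05, and DESeq2 and voom called 0. Calcrl, the adrenomedullin receptor, was at 565, 746 and 639 CPM in diaphragm and 377, 411 and 467 CPM in skin (edgeR adjusted p = 0.494).

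Ligands, receptors and targets of 5 pathways (VEGF, NOTCH, WNT, BMP and TGF-beta, and axon guidance) held no edgeR call. In the VEGF list (14 tested) 4 genes were higher at an unadjusted p under 0.05, DESeq2 called 3 and voom 0. Vegfc, the ligand of VEGFR-3, was at 7.67, 8.82 and 10.8 CPM in diaphragm with 1 count in skin, a log2 ratio of 9.37 (95% Poisson counting interval 6.89 to 14.67; edgeR adjusted p = 0.201). Ccbe1, a cofactor of its processing, was at 12.2, 75.6 and 2.69 CPM in diaphragm with no count in skin. In the NOTCH list (20 tested) 4 genes were higher at an unadjusted p under 0.05, DESeq2 called 3 and voom 0. Notch3, a receptor best known from mural cells and also in that marker list, was at 106, 90.5 and 53.9 CPM in diaphragm and 0, 0.812 and 0.0457 CPM in skin (log2 fold change 8.16 ± 1.47 SE, edgeR adjusted p = 0.0585). The ligand Jag1 was at 114, 84.0 and 90.1 CPM in diaphragm and 42.7, 36.4 and 51.4 CPM in skin, without overlap. Notch1 was at 297, 187 and 192 CPM in diaphragm and 361, 302 and 259 CPM in skin, with overlap.

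In the WNT list (27 tested) 4 genes were higher and 3 lower at an unadjusted p under 0.05, DESeq2 called 3 and 2, and voom 0. Tcf7l2, a nuclear effector of the pathway, was at 61.0, 36.8 and 44.9 CPM in diaphragm and 66.3, 226 and 122 CPM in skin. In the BMP and TGF-beta list (31 tested) 6 were higher and 1 lower at an unadjusted p under 0.05, DESeq2 called 4 and 1, and voom 0. The ligand Bmp4 was at 36.5, 56.5 and 43.8 CPM in diaphragm and 4.10, 8.81 and 0.183 CPM in skin (edgeR adjusted p = 0.371), and Bmpr2, its type II receptor, overlapped at 879, 1098 and 789 CPM against 1002, 1171 and 1257 CPM.

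Among semaphorins, plexins, ephrins and netrins (40 tested) 4 genes were higher and 3 lower at an unadjusted p under 0.05, DESeq2 called 3 and 1, and voom 0. The receptor Plxnd1 was at 252, 42.3 and 160 CPM in diaphragm and 37.0, 30.1 and 14.3 CPM in skin (edgeR adjusted p = 0.173). The transmembrane semaphorins Sema6a and Sema6d stood the other way. Sema6a was at 804, 881 and 882 CPM in diaphragm and 1858, 1103 and 1337 CPM in skin, and Sema6d at 174, 117 and 135 CPM against 292, 257 and 447 CPM. Sema3a, a secreted guidance cue that acts in valve formation, overlapped at 307, 377 and 306 CPM in diaphragm and 346, 443 and 559 CPM in skin.

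The nitric oxide and cyclic GMP list (18 tested) held no edgeR call, with 4 higher at an unadjusted p under 0.05, 2 called by DESeq2 and 0 by voom. Cav1, the caveolar coat protein, was at 1055, 802 and 909 CPM in diaphragm and 485, 511 and 378 CPM in skin (log2 fold change 1.01 ± 0.33 SE, edgeR adjusted p = 0.318). Spns2, the sphingosine-1-phosphate exporter, was at 68.5, 78.7 and 38.7 CPM in diaphragm and 232, 132 and 204 CPM in skin (edgeR adjusted p = 0.469). It belongs to a list of 13 tested genes with no edgeR call, 3 higher and 1 lower at an unadjusted p under 0.05, 1 called higher by DESeq2 and 0 by voom.

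Matrix and adhesion genes, which anchor the vessel in its tissue, stood higher in diaphragm for some members and in skin for others. Of 25 collagen genes tested none was called in edgeR; 2 were higher and 5 lower at an unadjusted p under 0.05, DESeq2 called 3 lower and voom 0. Col23a1, a transmembrane collagen, was at 32.5, 67.4 and 87.3 CPM in diaphragm and 234, 215 and 226 CPM in skin (log2 fold change -1.85 ± 0.46 SE, edgeR adjusted p = 0.181). Col4a1, a basement membrane collagen, overlapped at 535, 345 and 372 CPM in diaphragm and 347, 286 and 507 CPM in skin. Of 35 laminin, nidogen, tenascin and glycoprotein genes none was called in edgeR, with 4 higher and 1 lower at an unadjusted p under 0.05, 3 and 1 called by DESeq2 and 0 by voom. Lama2, the laminin chain of muscle basement membrane, was at 301, 242 and 89.5 CPM in diaphragm and 2.21, 20.3 and 0.0457 CPM in skin (edgeR adjusted p = 0.229). Nid2, a basement membrane linker, was at 27.5, 32 and 71.9 CPM in diaphragm and 183, 105 and 160 CPM in skin.

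Integrins (20 tested) held no edgeR call, with 5 higher and 1 lower at an unadjusted p under 0.05, 3 called higher by DESeq2 and 0 by voom. Itga1, a collagen receptor chain, was at 216, 137 and 72.9 CPM in diaphragm and 22.2, 37.1 and 8.41 CPM in skin (edgeR adjusted p = 0.152). Itgb4, a laminin receptor chain, was at 36.3, 131 and 33.3 CPM in diaphragm and 177, 244 and 219 CPM in skin (edgeR adjusted p = 0.354). Itga9, an integrin chain of lymphatic valves, was at 325, 296 and 465 CPM in diaphragm and 647, 299 and 157 CPM in skin, with wide overlap. Metalloproteinases and their inhibitors (28 tested), which hold Timp2, had no edgeR call, 4 higher and 2 lower at an unadjusted p under 0.05, 4 and 1 called by DESeq2, and 1 lower by voom. Timp3 was at 2618, 3051 and 3423 CPM in diaphragm and 3893, 3642 and 5213 CPM in skin (log2 fold change -0.49 ± 0.22 SE, edgeR adjusted p = 0.412). Ctgf, a matricellular protein, was at 15.2, 42.5 and 28.5 CPM in diaphragm and 96.5, 109 and 130 CPM in skin (edgeR adjusted p = 0.161).

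HOX genes encode factors that give cells their position along the body axis. Of 20 HOX genes with a row of counts, 16 were tested and none was called in edgeR, with 6 higher at an unadjusted p under 0.05, 2 called by DESeq2 and 0 by voom. Hoxa7 was at 8.22, 7.88 and 18.1 CPM in diaphragm and had 2 counts in skin, a log2 ratio of 8.69 (95% Poisson counting interval 6.84 to 11.73; edgeR adjusted p = 0.373). Hoxc4 was at 6.49, 6.89 and 2.79 CPM in diaphragm with no count in skin. Hoxd8 and Hoxd9 overlapped, and Hoxd8 was at 29.0, 74.1 and 92.6 CPM in diaphragm and 170, 129 and 77.6 CPM in skin. Of 37 other patterning factors none was called in edgeR, with 7 higher and 4 lower at an unadjusted p under 0.05, 5 and 1 called by DESeq2 and 0 by voom. Tbx3 was at 56.1, 34.8 and 18.1 CPM and Gata4 at 46.8, 29.0 and 4.66 CPM in diaphragm, both with no count in skin (edgeR adjusted p = 0.0801 and 0.176). Foxp1 stood the other way, at 240, 277 and 222 CPM in diaphragm and 505, 446 and 657 CPM in skin (edgeR adjusted p = 0.267).

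Genes that respond to handling and stress held no called member. Of 27 immediate early and dissociation-induced genes tested, none was called in edgeR, with 4 higher and 3 lower at an unadjusted p under 0.05, 2 called higher by DESeq2 and 0 by voom. The fitted value was higher in diaphragm for 9 of them and lower for 18, with a median log2 fold change of -0.25. Egr1 was at 1027, 1068 and 735 CPM in diaphragm and 258, 741 and 219 CPM in skin, while Dusp1 was at 524, 300 and 336 CPM against 865, 1373 and 482 CPM. Hspa1a, an inducible heat shock protein, was at 146, 245 and 92.0 CPM in diaphragm and 0.0774, 18.5 and 9.51 CPM in skin (edgeR adjusted p = 0.285). Hsph1 and Hsp90b1 are chaperones outside that list, named after their values were seen. Hsph1, a heat shock chaperone, was at 319, 381 and 252 CPM in diaphragm and 5.77, 57.4 and 7.91 CPM in skin (log2 fold change 3.74 ± 0.79 SE, edgeR adjusted p = 0.114). Hsp90b1, a chaperone of the endoplasmic reticulum, was at 787, 685 and 660 CPM in diaphragm and 383, 269 and 251 CPM in skin (edgeR adjusted p = 0.143). Without Skin replicate 2, Hsph1 passed the test.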

How the data were processed

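The deposited values are counts of reads on each Ensembl gene, made by the authors with FastQC, STAR and HTSeq on mm9 per the submitters' processing notes. Per the labels' protocols, Arcturus PicoPure extraction preceded amplification (NuGEN Ovation RNA-Seq System V2). The sources used here do not give versions, annotation, strand setting or the treatment of multiply matching reads. Counts of near-identical, overlapping or antisense genes are therefore uncertain. Symbols came from the table for 15853 genes and from the reference annotation by Ensembl identifier for 7078; 87 stayed unnamed and 22 symbols turned into dates were replaced. No gene coordinates are printed, other than those of RefSeq promoters.

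Counts of all 9 libraries were tested with edgeR 4.0.16 (R 4.3.3): filterByExpr, TMM scaling, and a quasi-likelihood fit with 1 mean per tissue, contrast diaphragm minus skin, with Benjamini-Hochberg adjustment over 14831 genes. All libraries weigh in the spread. Replicates were distinct libraries (chi-square of their counts over its degrees of freedom, 308.3 to 436). Bounds use a floor of 3 counts over a group, and floors and intervals cover counting error only. Alternatives, 19 in all, used DESeq2 1.42.0, limma 3.58.1 voom, other scalings, filters and sample sets, and each library left out in turn. Scripts were tested on simulated counts.

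The comparison, the naming rule and the 43 gene lists were chosen with earlier results of these data known. The rule takes 6 sort and identity genes, 12 genes per direction by size (mean log2 CPM 3 or more, groups without overlap; filled with uncalled genes by p-value), and from each list up to 4 called and the 2 highest members. Other genes named from the lists were chosen after their values were seen. List counts are read against the same counts over all genes, except those of members with no count in a tissue. A few genes are not reported here. Plots used matplotlib 3.10.9 and tables pandas 2.3.3, under Python 3.11.15.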

Additional observations from a re-analysis of the deposited data

How the results depend on the processing

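The main counts were 5 genes higher and 1 lower. They stayed within 1.5 times with DESeq2 size factors (5 and 1), upper-quartile factors (6 and 1) and mitochondrially encoded genes removed (5 and 1). They moved to 516 and 299 with the DESeq2 Wald test, 0 and 1 with limma voom, 215 and 90 with no filter on low counts, 11 and 2 with at least 50 counts in 3 libraries, 32 and 4 with the robust fit, and 1 and 0 with the 6 libraries alone (518 higher and 410 lower at an unadjusted p under 0.05). The cause was not tested. Leaving out each library in turn gave 2 to 54 higher and 0 to 4 lower. With the replicate block the counts were 14 and 2, and Muc16, Notch3, Stab2 and Upk3b then passed. Same-numbered diaphragm and skin libraries did not deviate together from their tissue means (correlations of -0.016, -0.002 and -0.002 across genes). With 3 libraries a tissue, this does not settle whether same-numbered libraries shared an animal, a pool or a batch.

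Of 1925 values for 102 named genes, 1744 kept their direction and side of the threshold, 144 newly passed it, 20 no longer passed and 17 changed sign. The sign changes outside the omission of a library concerned Pdpn (0.00 with upper-quartile factors, 0.06 with voom) and Pecam1 (0.00 with voom, 0.00 with the replicate block), all log2 fold changes. With each library left out in turn, log2 fold changes ran from -0.31 to 0.09 for Fgl2, -1.24 to 0.16 for Hoxd9, -0.08 to 0.18 for Mmrn1, -0.40 to 0.30 for Pdpn, -0.22 to 0.08 for Pecam1 and 0.00 to 7.41 for Sox10. Total counts were similar in the 6 libraries. There were 3 libraries a tissue, and the biological coefficient of variation was 1.24 over all genes. Standard errors differed between genes, with 0.22 for Timp3 and 0.23 for Timp2 against a median of 1.52 over all genes. A gene not called may still differ.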

Other observations

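Lists of oxidase, hypoxia and lipid genes held no gene called by edgeR, and their counts lay near the shares over all genes tested (6.82% higher and 4.97% lower at an unadjusted p under 0.05). Of the members with values here, Gpx3 and Duox2 were taken as the 2 highest of their list. Egln3 and Abcg1 were chosen after their values were seen. Gpx3, a secreted glutathione peroxidase, was at 564, 367 and 313 CPM in diaphragm and 89.9, 82.3 and 61.5 CPM in skin (log2 fold change 2.41 ± 0.56 SE, edgeR adjusted p = 0.146). Duox2, a hydrogen peroxide-producing oxidase, stood the other way, at 170, 144 and 95.7 CPM in diaphragm and 599, 393 and 319 CPM in skin (edgeR adjusted p = 0.441). Both belong to a list of 22 oxidase and peroxide genes with 1 higher and 1 lower at an unadjusted p under 0.05, 1 called higher by DESeq2 and 0 by voom. Egln3, a prolyl hydroxylase of the oxygen-sensing pathway, was at 21.4, 17.5 and 25.3 CPM in diaphragm and 134, 132 and 146 CPM in skin (edgeR adjusted p = 0.365). The hypoxia and glycolysis list (24 tested) had 1 higher and 1 lower at an unadjusted p under 0.05, with 1 called higher by DESeq2 and 0 by voom. Abcg1, a cholesterol exporter, was at 11.1, 10.2 and 20.1 CPM in diaphragm and 55.5, 58.0 and 154 CPM in skin (edgeR adjusted p = 0.191), in a list of 30 lipid genes with 3 higher and 2 lower at an unadjusted p under 0.05, 2 and 2 called by DESeq2 and 0 by voom.

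The imprinted genes Igf2 and Peg3 were chosen after their values were seen. Igf2, a fetal growth factor, was at 321, 139 and 160 CPM in diaphragm and 75.3, 51.4 and 47.6 CPM in skin (edgeR adjusted p = 0.143). Peg3 was at 1215, 1153 and 540 CPM in diaphragm and 222, 119 and 129 CPM in skin (edgeR adjusted p = 0.157). Both stood apart without overlap. Ribosomal protein genes (55 tested) held no edgeR call, 2 at an unadjusted p under 0.05, both higher, and 0 called by DESeq2 or voom. Angiopoietin and Tie pathway genes (11 tested) had 1 higher at an unadjusted p under 0.05, 1 called by DESeq2 and 0 by voom, and Kruppel-like factor genes (13 tested) had 0 by any of these counts.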
